A study of Homo sapiens with 6 samples.

Results

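DNA repair and replication checkpoint genes were followed in SK-N-BE(2), a MYCN-amplified line from a human neuroblastoma, after treatment with NEN. The group was chosen by gene symbol, from a list drawn up with earlier results of these data known, and holds 43 of the 35130 gene names in the files: 10 of the Fanconi pathway, 20 of homologous recombination, 7 of the ATM/ATR checkpoint and 6 of mismatch repair and uracil removal. The comparison was between 3 libraries of cells given 1 µM NEN and 3 of cells given the solvent DMSO, both for 24 h in culture dishes, in unmodified cells of the same line as far as the labels say. The labels give NEN only as an abbreviation, and its usual reading in neuroblastoma work, niclosamide ethanolamine, a mitochondrial uncoupler, is taken here as background. The labels call the samples biological replicates without saying what was repeated, so the p-values measure the spread between these 3 samples per group, which may be technical.

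Fanconi proteins recognise crosslinked DNA at stalled replication forks. A core complex acts as a ubiquitin ligase on the FANCI-FANCD2 pair, and the lesion is then handed to nucleases and to homologous recombination, in which BRCA1, PALB2 and BRCA2 load the recombinase on resected DNA. ATR with its partner ATRIP senses single-stranded DNA at forks and acts through TOPBP1, claspin and the kinase CHK1, while ATM is recruited to breaks by the MRE11-RAD50-NBS1 complex and acts through CHK2. Mismatch repair corrects copying errors, and UNG removes uracil from DNA. Many of these genes are transcribed mainly in late G1 and S phase under E2F factors, so their mRNA levels in a culture also follow the share of cells in those phases. In bulk RNA, fewer cells in a phase and less RNA per cell cannot be told apart.

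Levels are TPM, a normalised transcript abundance that sums to a fixed total per library. The values are scaled for transcript length and library total and keep no record of sequencing depth. A change is the NEN mean minus the DMSO mean on the log2(TPM + 1) scale, given ± SE with an adjusted p from limma over the 12576 genes whose mean was at least 1 TPM. This scale understates the change of low genes. Of the 43 genes, 42 passed that filter and FANCB did not. Group levels are mean ± SD with n = 3.

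The 6 libraries summed to between 929054 and 933500 TPM over the listed names, with 17285 to 18041 genes above 0. Pairs of libraries correlated at 0.976 to 0.983 (Pearson r across genes, log2 scale) within a group and at 0.955 to 0.965 between groups. The 10 neuroblastoma markers were all present, at a summed 4811 to 5381 TPM in DMSO and 5468 to 5648 TPM in NEN libraries. Of 8 blood cell markers 7 stayed under 1 TPM in every library, with CD3E and HBB at 0 throughout, although the labels give bone marrow as the tissue. The sum of these 8 was 0.516 to 2.30 TPM in DMSO and 0.150 to 0.838 TPM in NEN. Summed endothelial markers (4 genes, KDR at 0) were at 0.690 to 1.12 and 0.901 to 1.90 TPM, and epithelial ones (5 genes, KRT5 at 0) at 4.57 to 5.82 and 4.35 to 9.98 TPM. The 6 stromal markers, none of which was at 0 throughout, summed to 16.1 to 20.9 TPM in DMSO and 25.9 to 31.2 TPM in NEN. Of these, PDGFRB had 8.59 to 12.6 against 19.3 to 24.3 TPM, while the ranges of COL1A1, COL1A2, COL3A1, DCN and LUM overlapped between the groups. Transcripts of mitochondrial DNA took 9.53% to 11.6% of the TPM in DMSO and 7.49% to 8.56% in NEN libraries. The part of these differences in the results on repair genes was not tested.

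Repair and checkpoint mRNAs were lower after NEN in 19 of 42 tested genes and higher in 2, FANCF and RAD50. That is 45.2% falling, where 16.5% of all genes tested fell and 13.5% (1699) rose. Without NEN replicate 1 the genes that rose numbered 1063. The summed level of the 43 genes was 1018, 1112 and 1025 TPM with DMSO and 759.7, 746.0 and 749.9 TPM with NEN, so the groups did not overlap. The median change over the 42 genes was -0.41, beside -0.02 over all genes tested. All 3 NEN libraries lay below all 3 DMSO libraries for 21 of the 42 genes, a pattern found in 25.0% of genes tested, and above them for 3, found in 21.8%. The changes ran from -1.33 for CLSPN to 0.63 for FANCF, and 1 gene, CLSPN, fell by at least 1 on the log2 scale, as did 1.26% of genes tested. Of the 19 falls, 14 held in each of 15 alternative analyses that tested the gene. The other 5 were FANCL, BRCA1, BARD1, RBBP8 and BLM.

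**Figure D1:**
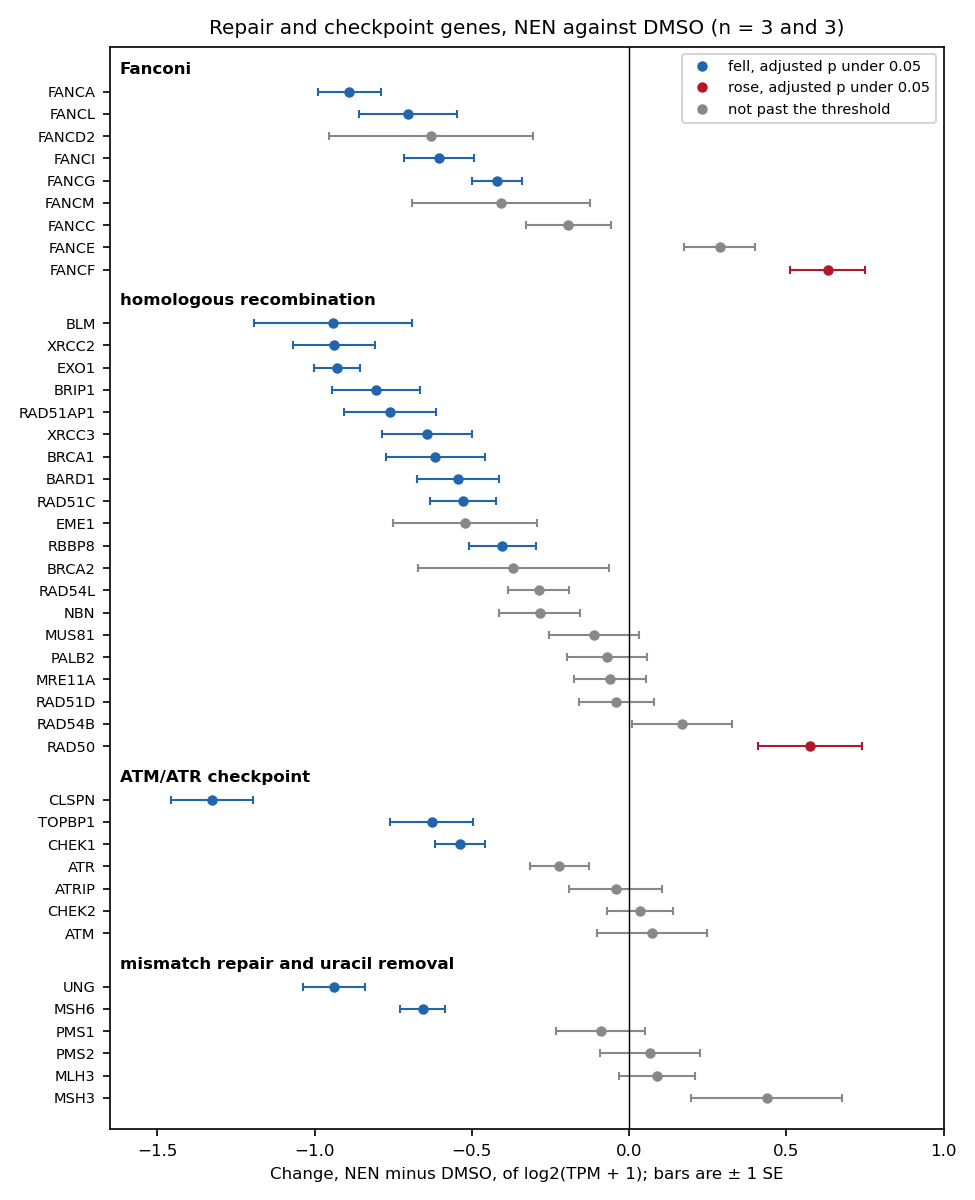
Change in log2(TPM + 1), NEN minus DMSO, for the 42 tested genes by pathway (points, x axis in log2 units), with bars of ± 1 SE from limma, blue for genes that fell, red for genes that rose and grey for the rest. CLSPN lies farthest to the left at -1.33 and FANCF farthest to the right at 0.63.

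Genes of S phase and DNA replication were lower in the same libraries. Of 28 such genes tested, 26 fell and 0 rose, with a median change of -0.95. PCNA, the sliding clamp of replication, had 472.1, 446.3 and 434.3 TPM in DMSO and 182.2, 178.9 and 165.5 TPM in NEN. MCM5, a subunit of the replicative helicase, went from 142.4 ± 9.06 to 51.0 ± 4.38 TPM, and TK1, thymidine kinase, from 127.2 ± 4.43 to 56.0 ± 1.96 TPM. The quartiles of change were -1.18 and -0.67 in that list and -0.64 and -0.05 among the repair and checkpoint genes. Whether the repair genes fell with the share of S phase cells was not tested.

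**Figure D2:**
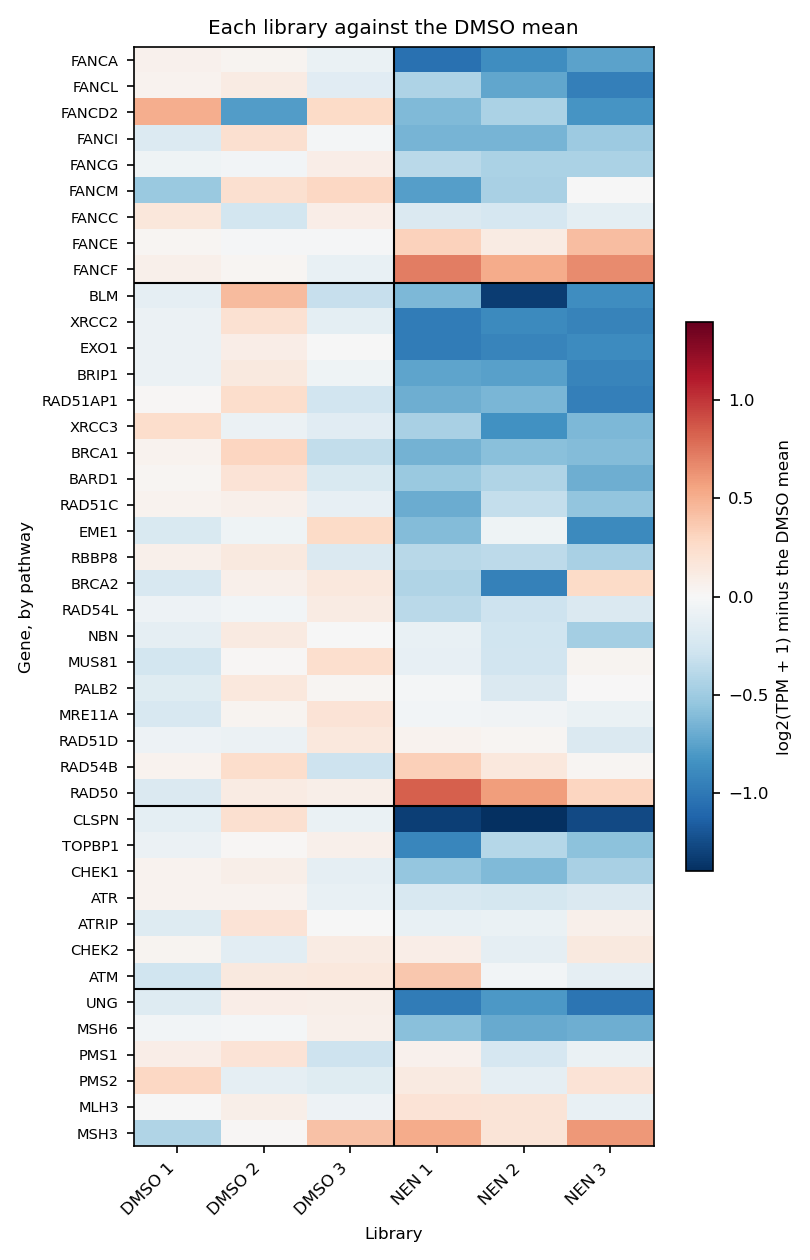
Log2(TPM + 1) of each tested gene in each library (columns, 3 DMSO then 3 NEN) minus that gene's DMSO mean, shown as colour from blue (lower) to red (higher), with genes in rows by pathway. Most rows are blue in all 3 NEN libraries. FANCF, RAD50, FANCE, MSH3 and RAD54B lie on the red side there, RAD54B only faintly in NEN replicate 3. FANCD2 differs between the DMSO libraries themselves.

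Since many members fell together, the sequence around the start sites of the members with the smallest adjusted p is shown, 4 that fell and the 2 that rose. The sequences are from RefSeq on GRCh38.p14, with 120 bases before the start base and 30 from it on, 150 in all, written 5′ to 3′ along the gene. Capitals mark matches on either strand to an E2F word (TTTGGCGC, TTTCGCGC, TTTCCCGC, TTTGCCGC or GGCGGGAA), to a CHR word (TTTGAA or TTCGAA), an element of genes expressed in G2 and M phase, or to CCAAT, the word read by NF-Y. TTTCCCGC and GGCGGGAA overlap each other on opposite strands. The windows lie at chr1:241848084-241848233 (plus strand) for EXO1, chr1:35769949-35770098 (minus strand) for CLSPN, chr12:109097477-109097626 (plus strand) for UNG, chr2:47783025-47783174 (plus strand) for MSH6, chr11:22625794-22625943 (minus strand) for FANCF and chr5:132556857-132557006 (plus strand) for RAD50.
EXO1: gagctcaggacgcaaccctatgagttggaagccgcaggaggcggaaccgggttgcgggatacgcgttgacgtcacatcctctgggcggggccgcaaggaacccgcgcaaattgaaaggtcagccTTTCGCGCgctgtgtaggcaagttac
CLSPN: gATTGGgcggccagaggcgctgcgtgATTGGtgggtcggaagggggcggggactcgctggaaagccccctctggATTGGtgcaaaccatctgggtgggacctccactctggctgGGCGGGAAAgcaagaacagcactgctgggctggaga
UNG: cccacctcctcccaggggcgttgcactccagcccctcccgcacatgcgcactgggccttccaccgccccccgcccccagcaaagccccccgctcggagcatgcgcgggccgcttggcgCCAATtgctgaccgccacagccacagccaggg
MSH6: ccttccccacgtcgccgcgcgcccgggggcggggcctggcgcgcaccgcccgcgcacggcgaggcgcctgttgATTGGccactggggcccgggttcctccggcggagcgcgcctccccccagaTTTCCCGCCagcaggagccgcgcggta
FANCF: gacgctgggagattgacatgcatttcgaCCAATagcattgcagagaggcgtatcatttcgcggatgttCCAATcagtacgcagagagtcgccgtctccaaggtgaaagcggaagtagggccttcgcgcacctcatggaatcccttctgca
RAD50: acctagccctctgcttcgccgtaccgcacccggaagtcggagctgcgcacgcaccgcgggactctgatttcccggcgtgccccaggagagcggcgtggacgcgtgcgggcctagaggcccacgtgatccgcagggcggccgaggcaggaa

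EXO1 carried an E2F word from base 4 to base 11 after the start base, and MSH6 from base 3 to base 11 through its 2 overlapping words, with a CCAAT box upstream. CLSPN carried one across the start base and 3 CCAAT boxes before it. UNG had a CCAAT box across the start base and no E2F word as spelled here, and FANCF had 2 CCAAT boxes. RAD50 had none of these words in its window. Promoters of 300 bases (250 before the start base, 50 from it on) were in the table for 40 of the 43 genes, all but FANCI, RAD54B and NBN. An E2F word was found in 16 of these 40 (40%), in 5.57% of the 27305 promoters of the table, which include those of noncoding genes, and in 9.31% of the 9660 promoters matched to tested genes. Only 76.8% of tested genes had a match, too few for a check, so their shares are a description. By outcome the share was 11 of 18 among genes that fell, 5 of 19 among tested genes that did not pass the threshold and 0 of the 2 that rose. Over all matched tested genes it was 14.5% of those that fell, 8.61% of those not past the threshold and 6.39% of those that rose. The fallers without one were BRCA1, BARD1, CHEK1, RAD51C, FANCG, RBBP8 and UNG. CCAAT was found in 20 of 40 (50%), against 35.7% of all promoters and 37.3% of those matched to tested genes. A CHR word was found in 3 of 40 (7.5%), against 16.6% and 10.7%. A match is a run of letters and not a measured binding site.

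**Figure D3:**
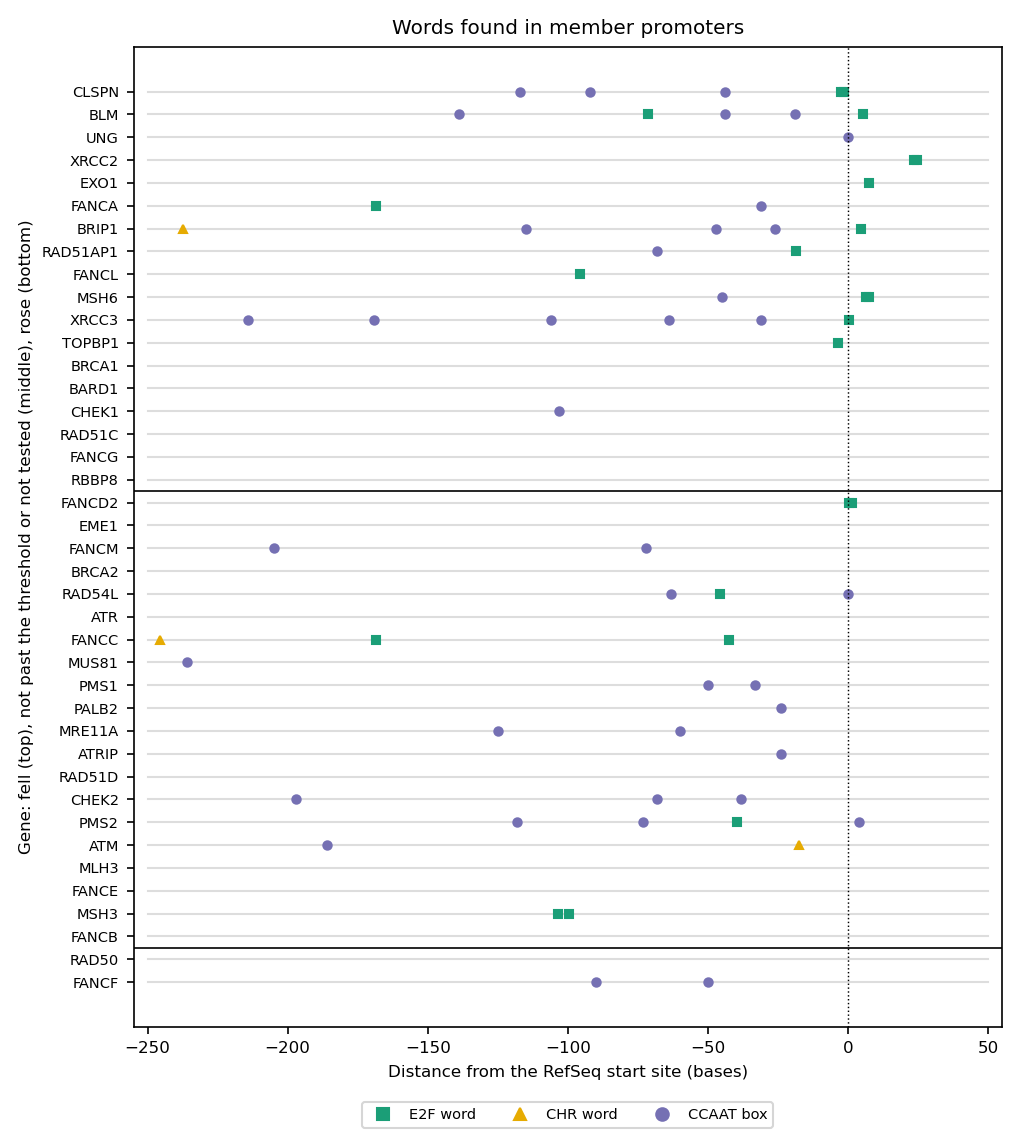
Centres of E2F words (squares), CHR words (triangles) and CCAAT boxes (circles) in 40 promoters, by distance in bases from the RefSeq start base, with genes that fell at the top, genes not past the threshold or not tested in the middle and genes that rose at the bottom. Of the 18 genes at the top 11 hold an E2F word, and of the 2 at the bottom 0 do.

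In the Fanconi pathway 4 of 9 tested genes fell and 1 rose, with a median of -0.42. FANCA, a core complex subunit, had 37.6, 37.0 and 33.6 TPM with DMSO and 16.9, 19.2 and 21.0 TPM with NEN. The groups stood well apart, and the level after NEN was 52.8% of that in DMSO (-0.89 ± 0.10, adjusted p = 0.00126). FANCG, which binds FANCA in the core complex, went from 28.7 ± 1.73 to 21.2 ± 0.62 TPM (-0.42 ± 0.08, adjusted p = 0.00835), again without overlap. FANCL, the ubiquitin ligase subunit, had 17.4, 18.1 and 14.9 TPM against 12.2, 9.72 and 8.14 TPM. Its change of -0.70 ± 0.16 (adjusted p = 0.0143) had an adjusted p = 0.0517 without DMSO replicate 2 (-0.65).

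FANCF, the adaptor that joins FANCC and FANCE to the rest of the core complex, went the other way. It had 6.08, 5.91 and 5.31 TPM in DMSO and 10.1, 8.65 and 9.67 TPM in NEN, so that each NEN library was above each DMSO library (0.63 ± 0.12, adjusted p = 0.00787). FANCE had 10.3 to 10.6 TPM in DMSO and 11.3 to 14.4 TPM in NEN, which did not overlap but missed the threshold (0.29 ± 0.11, adjusted p = 0.0994). FANCC overlapped between groups, with 11.2 ± 1.81 and 9.60 ± 0.37 TPM (adjusted p = 0.322). Within each library the TPM of FANCF divided by that of FANCA was 0.162, 0.160 and 0.158 in DMSO and 0.598, 0.451 and 0.461 in NEN. This ratio does not depend on library scaling, and the pair was chosen after the values were seen.

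FANCI and FANCD2, the pair that is ubiquitinated, differed in how firmly they were measured. FANCI had 68.0, 91.5 and 76.4 TPM in DMSO and 49.4, 49.3 and 54.4 TPM in NEN (-0.60 ± 0.11, adjusted p = 0.00712). FANCD2 had 11.3, 4.03 and 9.45 TPM in DMSO and 4.64, 5.37 and 3.87 TPM in NEN. DMSO replicate 2 lay within the NEN range, and the change of -0.63 ± 0.32 missed the threshold (adjusted p = 0.184). Without that library it was -1.02 with an adjusted p = 0.0131. FANCD2 has near-identical pseudogene copies, so the sharing of its reads is uncertain. FANCM, the translocase that anchors the core complex, had 5.03 ± 1.68 and 3.52 ± 1.23 TPM (adjusted p = 0.315). FANCB, below the filter, had 1.02, 1.54 and 0.527 TPM in DMSO and 0.275, 0.00456 and 0 TPM in NEN. With no filter its change was -0.87 ± 0.24 (adjusted p = 0.0631).

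Of 13 further Fanconi genes tested 5 fell and 1 rose, with a median of -0.23. USP1, which removes ubiquitin from the FANCI-FANCD2 pair, went from 43.8 ± 5.37 to 23.8 ± 1.88 TPM. UBE2T, the E2 enzyme of the core complex, had 14.5, 13.4 and 12.1 TPM against 7.85, 5.19 and 6.23 TPM, and RFWD3, a ubiquitin ligase acting on RPA, went from 48.8 ± 3.96 to 33.2 ± 2.19 TPM. The changes of the 3 genes were -0.85 ± 0.11, -0.96 ± 0.16 and -0.54 ± 0.09. Of the list 0 genes rose without NEN replicate 1 or NEN replicate 2, and 2 rose without the third NEN library. The E2 enzyme, the ligase subunit and the deubiquitinase of this step were all lower after NEN.

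In homologous recombination 10 of 20 genes fell and 1 rose, with a median of -0.46. Without DMSO replicate 2 or without NEN replicate 3 the falls numbered 6, with BRCA1, BARD1, RBBP8 and BLM losing their calls. The rise was lost on leaving out any 1 library but NEN replicate 3. EXO1, a nuclease of end resection that also acts in mismatch repair, had the smallest adjusted p of the 42 tested genes. It had 63.4, 71.6 and 67.2 TPM in DMSO and 33.6, 34.9 and 36.2 TPM in NEN, or 51.8% of the DMSO level (-0.93 ± 0.07, adjusted p = 0.000397). BLM, a helicase that unwinds recombination joints, had 8.28, 12.7 and 7.09 TPM against 5.54, 3.04 and 4.52 TPM (-0.94 ± 0.25, adjusted p = 0.0285). The BLM groups did not overlap, but its adjusted p was 0.0762 when DMSO replicate 2 was left out (-0.72), 0.0803 for NEN replicate 2 (-0.75) and 0.0651 for NEN replicate 3 (-0.98), and it was 0.0660 with no filter. RBBP8, which encodes the resection factor CtIP, went from 25.2 ± 3.12 to 18.7 ± 0.61 TPM (-0.40 ± 0.11, adjusted p = 0.0284). It lost its call on leaving out any 1 library but DMSO replicate 3 (adjusted p from 0.0664 to 0.0881, changes from -0.42 to -0.34), with no filter (0.0576) and after correction for length and GC content (-0.28, adjusted p = 0.0604).

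Of the break-sensing MRE11-RAD50-NBS1 complex 1 subunit rose and the others did not pass the threshold. RAD50 had 7.97, 10.1 and 9.94 TPM in DMSO and 17.5, 14.4 and 11.7 TPM in NEN, higher in each NEN library (0.57 ± 0.16, adjusted p = 0.0358). Its call was lost on leaving out any 1 library but NEN replicate 3 (adjusted p from 0.0634 to 0.0997, changes from 0.44 to 0.63) and with no filter (0.0756). MRE11A had 22.5 to 30.4 TPM in DMSO and 24.8 to 25.8 TPM in NEN, inside the DMSO range (-0.06 ± 0.11, adjusted p = 0.727). NBN, which encodes NBS1, had 15.2 ± 1.44 and 12.4 ± 1.70 TPM, with overlap (adjusted p = 0.139). RAD50 stood at 0.576, 0.607 and 0.657 times the level of NBN with DMSO and at 1.24, 1.17 and 1.09 times with NEN, a pair chosen after the values were seen. MUS81 and EME1, the subunits of a nuclease that cuts joint molecules, did not pass the threshold, with 26.7 ± 4.70 against 24.5 ± 2.66 TPM and 11.0 ± 2.12 against 7.55 ± 2.57 TPM. EME1 passed without NEN replicate 2 (-0.75, adjusted p = 0.0381).

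**Figure D4:**
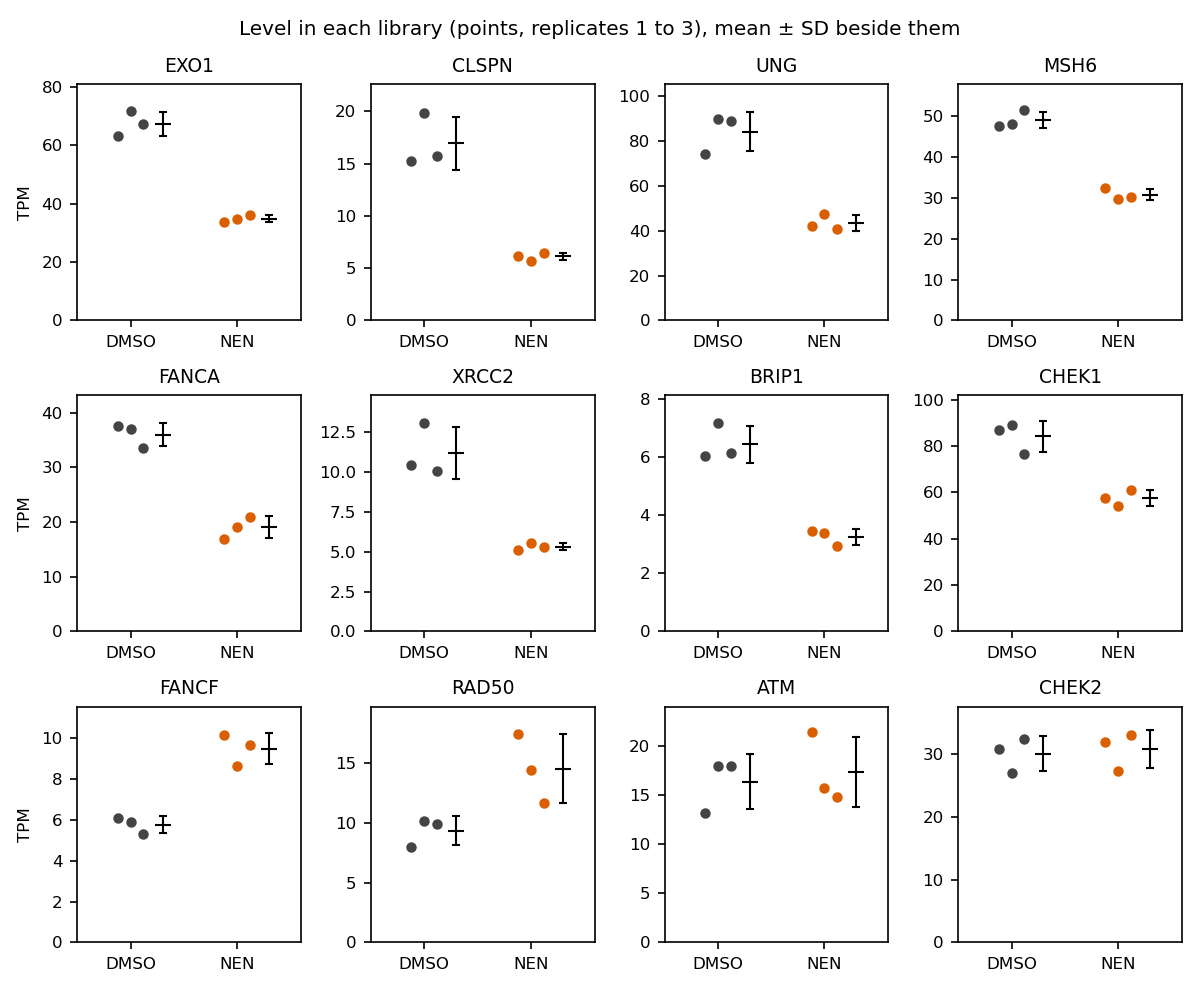
TPM in each library (points, replicates 1 to 3 from left to right) with mean ± SD beside them for 12 of the genes, each panel with its own y axis from 0. The groups do not overlap in the first 10 panels, with NEN lower from EXO1 to CHEK1 and higher for FANCF and RAD50, and they overlap for ATM and CHEK2. These 12 genes are a selection made for display. Of the 42 tested members NEN lay wholly below DMSO for 21 and wholly above for 3. Over all genes tested these patterns were found in 25.0% and 21.8%.

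BRCA1 and its partner BARD1, which together form a ubiquitin ligase, both fell. BRCA1 had 27.4, 32.8 and 20.6 TPM in DMSO and 16.41, 17.34 and 17.04 TPM in NEN (-0.62 ± 0.16, adjusted p = 0.0250), and BARD1 21.4, 24.2 and 18.0 against 14.3, 15.4 and 12.7 TPM (-0.54 ± 0.13, adjusted p = 0.0197). Neither overlapped between groups. The BRCA1 call was lost with no filter (adjusted p = 0.0584) and on leaving out any 1 library but DMSO replicate 3 (adjusted p from 0.0591 to 0.0731, changes from -0.63 to -0.47). That of BARD1 was lost without DMSO replicate 2 (-0.45, adjusted p = 0.0610). It was also lost without NEN replicate 1 (-0.56, adjusted p = 0.0526) and without the third NEN library (-0.47, adjusted p = 0.0654). BRIP1, the helicase that binds BRCA1 and is also a Fanconi gene, kept its call in each alternative that tested it, with 6.02, 7.16 and 6.12 TPM against 3.44, 3.38 and 2.92 TPM (-0.81 ± 0.14, adjusted p = 0.00575). PALB2, the bridge between BRCA1 and BRCA2, had 10.0 ± 1.20 and 9.48 ± 0.80 TPM (-0.07 ± 0.13, adjusted p = 0.709). BRCA2, the recombinase loader, was low in both groups, with 3.18 to 4.41 and 1.53 to 4.85 TPM (adjusted p = 0.40).

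Among the helpers of the recombinase 4 of 7 genes fell. XRCC2, a paralog of the recombinase, had 10.5, 13.1 and 10.0 TPM in DMSO and 5.14, 5.52 and 5.33 TPM in NEN, or 47.6% of the DMSO level (-0.94 ± 0.13, adjusted p = 0.00267). RAD51AP1, which stimulates strand exchange, went from 44.55 ± 7.996 to 25.8 ± 3.07 TPM (-0.76 ± 0.15, adjusted p = 0.00835). The paralogs XRCC3 and RAD51C, which bind each other, went from 29.4 ± 4.63 to 18.5 ± 2.62 TPM and from 63.5 ± 4.39 to 44.0 ± 5.67 TPM, with changes of -0.64 ± 0.14 and -0.53 ± 0.10. The fourth paralog measured, RAD51D, had 12.1 to 14.3 and 11.0 to 13.3 TPM (-0.04 ± 0.12, adjusted p = 0.824). RAD54L, a motor protein of strand exchange, had 19.1, 19.6 and 22.0 against 15.4, 16.3 and 17.5 TPM, which did not overlap but missed the threshold (-0.29 ± 0.10, adjusted p = 0.0618). Its relative RAD54B had 12.7 ± 2.52 and 14.3 ± 1.63 TPM (adjusted p = 0.464).

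Of 29 other recombination genes tested 10 fell and 2 rose, with a median of -0.20. FIGNL1, an ATPase that acts on the recombinase, had 19.5, 26.7 and 19.5 TPM in DMSO and 8.24, 7.78 and 7.87 TPM in NEN (-1.34 ± 0.14). DNA2, a nuclease of resection and of replication, went from 26.8 ± 0.44 to 14.5 ± 0.86 TPM (-0.84 ± 0.08), and RPA2, a subunit of the single-strand binding protein, from 72.9 ± 4.78 to 47.7 ± 0.37 TPM (-0.60 ± 0.07). Each of these 3 genes was lower in all NEN libraries than in any DMSO library. The median was -0.09 without NEN replicate 1, and 1 gene rose on leaving out any 1 library but DMSO replicate 1.

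In the ATM/ATR checkpoint 3 of 7 genes fell and 0 rose, with a median of -0.22 (-0.38 with a minimum of 5 TPM). The falls were in the ATR arm, in the mediators and the effector kinase. CLSPN, which encodes the claspin that brings CHK1 to ATR, had 15.3, 19.8 and 15.7 TPM in DMSO and 6.16, 5.73 and 6.45 TPM in NEN. It was at 36.1% of its DMSO level, the largest fall among the 42 tested (-1.33 ± 0.13, adjusted p = 0.000778), and 0.708% of all genes tested had a change as low or lower. TOPBP1, the activator of ATR, had 38.9, 41.8 and 43.6 TPM against 21.6, 31.1 and 27.5 TPM (-0.63 ± 0.13, adjusted p = 0.0119). CHEK1, which encodes CHK1, had 86.9, 88.9 and 76.6 TPM against 57.4, 54.2 and 61.1 TPM (-0.54 ± 0.08, adjusted p = 0.00337). ATR itself had 14.2 to 15.9 TPM in DMSO and 12.7 to 13.2 TPM in NEN, without overlap but short of the threshold (-0.22 ± 0.09, adjusted p = 0.116). ATRIP had 5.03 ± 0.77 and 4.83 ± 0.40 TPM (adjusted p = 0.856).

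The ATM arm overlapped between the groups. ATM had 13.2, 18.0 and 18.0 TPM in DMSO and 21.4, 15.8 and 14.8 TPM in NEN (0.07 ± 0.17, adjusted p = 0.785), and CHEK2, which encodes CHK2, 30.8, 27.0 and 32.4 against 32.0, 27.4 and 33.1 TPM (0.03 ± 0.11, adjusted p = 0.835). CHEK2 has pseudogene copies that could share its reads. The ratio of CHEK1 to CHEK2 was 2.82, 3.29 and 2.36 with DMSO and 1.80, 1.98 and 1.85 with NEN, without overlap, in a pair chosen after the values were seen. Of 20 other checkpoint genes 11 fell and 1 rose, with a median of -0.42. The falls numbered 7 without NEN replicate 3, and 0 rose on leaving out any 1 library but DMSO replicate 1 or NEN replicate 2. H2AFX, which encodes the histone variant phosphorylated at breaks, went from 229.4 ± 2.25 to 144.8 ± 6.53 TPM (-0.66 ± 0.05). TIPIN, a fork protection factor, went from 29.9 ± 1.14 to 15.4 ± 1.73 TPM (-0.92 ± 0.10), and CDC25A, the phosphatase that CHK1 marks for breakdown, from 41.8 ± 2.98 to 24.6 ± 2.06 TPM (-0.74 ± 0.09).

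In mismatch repair and uracil removal 2 of 6 genes fell and 0 rose, with a median of -0.01 (-0.12 without DMSO replicate 3, and 0.09 after correction for length and GC content). MSH6, which recognises base mismatches, had 47.6, 48.0 and 51.3 TPM in DMSO and 32.3, 29.7 and 30.2 TPM in NEN (-0.66 ± 0.07, adjusted p = 0.00114). MSH3, which takes its place in the complex for insertion and deletion loops, had 2.08, 3.17 and 4.50 TPM against 4.90, 3.70 and 5.31 TPM, with overlap (0.44 ± 0.24, adjusted p = 0.213). MSH6 was thus at 22.9, 15.2 and 11.4 times the level of MSH3 with DMSO and at 6.58, 8.03 and 5.68 times with NEN. That pair was chosen after the values were seen, and MSH3 was low throughout.

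UNG had 74.1, 89.7 and 88.9 TPM in DMSO and 42.0, 47.5 and 40.7 TPM in NEN, or 51.5% of the DMSO level (-0.94 ± 0.10, adjusted p = 0.000993). The gene makes a nuclear and a mitochondrial isoform, which gene totals do not separate. MLH3, PMS1 and PMS2, the MutL-type partners that cut or signal after mismatch recognition, had changes of 0.09 ± 0.12, -0.09 ± 0.14 and 0.07 ± 0.16. Their groups overlapped, at 10.6 ± 0.60 against 11.3 ± 1.36 TPM, 29.3 ± 5.04 against 27.3 ± 2.87 TPM and 10.3 ± 2.05 against 10.7 ± 1.33 TPM. PMS2 has close pseudogene copies, so its level is uncertain.

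Other repair routes are set beside the 16.5% of all tested genes that fell and the 13.5% that rose. In base excision repair, the route that UNG opens, 5 of 18 genes fell and 5 rose (27.8% each), with a median of -0.05. The falls numbered 2 without DMSO replicate 1, DMSO replicate 2 or NEN replicate 2. They numbered 3 with no filter, with quantile normalization or after correction for length and GC content. Leaving out NEN replicate 1 gave 3 falls, and leaving out the third NEN library gave 1. TDG, another glycosylase for uracil and thymine mispairs, had 68.4, 73.7 and 68.9 TPM in DMSO and 36.1, 33.1 and 36.5 TPM in NEN (-0.98 ± 0.07). XRCC1, the scaffold of single-strand break repair, rose from 31.8 ± 0.62 to 48.1 ± 1.82 TPM (0.58 ± 0.07), and NEIL2, a glycosylase for oxidised bases, from 11.6 ± 1.16 to 18.2 ± 1.39 TPM (0.62 ± 0.11). The other uracil glycosylases of the list, SMUG1 and MBD4, named after their values were seen, overlapped between groups. SMUG1 had 33.4 ± 1.81 and 30.9 ± 1.69 TPM (-0.11 ± 0.08, adjusted p = 0.351), and MBD4 21.78 ± 2.24 and 19.03 ± 0.84 TPM (-0.18 ± 0.10, adjusted p = 0.216).

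In nonhomologous end joining 5 of 11 genes fell (45.5%) and 1 rose (9.09%), with a median of -0.24. Without DMSO replicate 1, DMSO replicate 2 or NEN replicate 2 the falls numbered 3, and 0 rose on leaving out any 1 library but DMSO replicate 1. With no filter, or in limma without the trend and robust options, the falls also numbered 3. PRKDC, the catalytic subunit of DNA-dependent protein kinase, went from 137.8 ± 10.3 to 102.9 ± 2.17 TPM (-0.42 ± 0.07). The Ku subunits XRCC5 and XRCC6 went from 537.7 ± 44.6 to 399.4 ± 12.1 TPM (-0.43 ± 0.07) and from 595.3 ± 35.1 to 502.4 ± 10.5 TPM (-0.24 ± 0.06). The XRCC6 call was lost without NEN replicate 2 (-0.23, adjusted p = 0.0651) and without the third NEN library (-0.25, adjusted p = 0.0562). It was also lost in limma without the trend and robust options (adjusted p = 0.0650). Nucleotide excision repair had 4 of 21 down (19%) and 1 up (4.76%), with a median of -0.10 (-0.23 without DMSO replicate 2, -0.21 without NEN replicate 1). The falls numbered 2 on leaving out any 1 library but DMSO replicate 1 or NEN replicate 3, and 3 rose without DMSO replicate 1. With no filter, a minimum of 5 TPM or correction for length and GC content the falls also numbered 2. GTF2H4, a subunit of TFIIH, had 5.42, 4.44 and 4.79 TPM in DMSO and 0.481, 1.32 and 0.185 TPM in NEN (-1.88 ± 0.27). GTF2H4 was low throughout and near the floor in NEN, so the size of its change is uncertain. The TFIIH helicase ERCC3 went from 35.8 ± 3.17 to 24.5 ± 3.05 TPM. Translesion synthesis had 7.69% down and 7.69% up, both below the shares of all genes. There 1 of 13 fell (2 without DMSO replicate 1), POLQ, a polymerase of microhomology-mediated joining (7.42 ± 0.74 to 3.91 ± 0.89 TPM), and 1 rose, MAD2L2, a subunit of polymerase zeta (46.3 ± 3.02 to 65.4 ± 2.04 TPM).

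Targets of p53 that respond to DNA damage had 5 of 24 down (20.8%) and 7 up (29.2%), with a median of 0.13. Of all genes tested 16.5% fell and 13.5% rose. BBC3, which encodes the pro-apoptotic protein PUMA, had 2.55, 3.70 and 3.00 TPM in DMSO and 19.5, 19.4 and 19.9 TPM in NEN (2.34 ± 0.13). BTG2, an antiproliferative factor, went from 16.0 ± 2.63 to 30.4 ± 1.07 TPM, and CCNG1, cyclin G1, from 52.9 ± 4.10 to 79.8 ± 5.02 TPM. CDKN1A, which encodes the inhibitor p21 and was added after its values were seen, was lower, at 65.0 ± 1.63 against 45.6 ± 3.85 TPM (-0.51 ± 0.08, adjusted p = 0.00358). The list thus holds targets that moved in opposite directions in the same libraries, as genes did over all those tested.

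**Figure D5:**
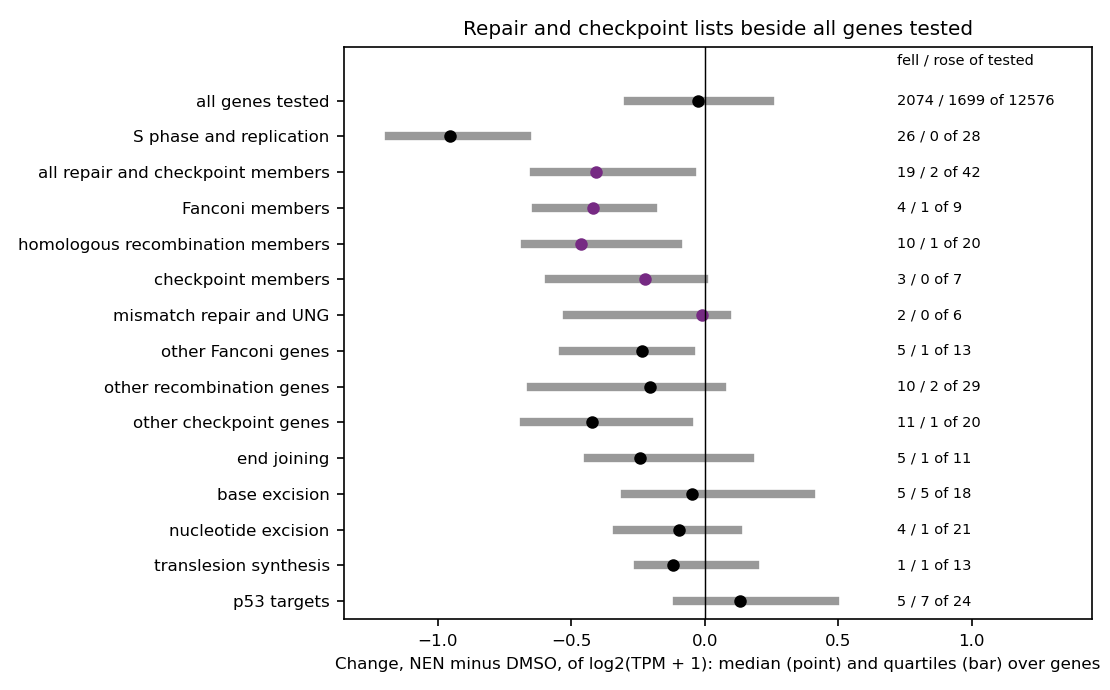
Median (point) and quartiles (grey bar) of the change in log2(TPM + 1), NEN minus DMSO, for the repair and checkpoint genes (purple) and for other fixed lists and all genes tested (black), with the counts that fell and rose of those tested at the right. Homologous recombination members sit at a median of -0.46 and S phase genes at -0.95, while all genes tested sit at -0.02.

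The level of the members was spread over a wide range, and the change was set beside it as a description. In DMSO, UNG and CHEK1 were the highest, at 84.2 ± 8.80 and 84.1 ± 6.59 TPM, levels that did not differ beyond their spread, followed by FANCI at 78.6 ± 11.9, EXO1 at 67.4 ± 4.13 and RAD51C at 63.5 ± 4.39 TPM. These 5 genes all fell. The lowest tested were MSH3 and BRCA2, at 3.25 ± 1.21 and 3.90 ± 0.64 TPM, neither of which passed the threshold. Across the 42 genes the change correlated with the log2 DMSO level at Pearson r = -0.45 and Spearman rho = -0.44. Genes are not independent replicates, the DMSO level enters both measures and low genes are compressed by the pseudocount. Transcript length showed r = 0.08 and GC content r = 0.06 over the same 42 genes.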

How the data were processed

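RNA from 3 DMSO and 3 NEN samples was sequenced by the authors. Per the submitters' processing notes, kallisto and the hg19 build were used. For their versions, and for how transcripts were summed to genes, nothing is given in the sources used here. Per the labels, both polyA capture and rRNA removal are named. The authors deposited TPM per gene and library. TPM keeps no read numbers, so the depth is unknown and counting intervals were not computed.

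Genes averaging 1 TPM or more were kept (12576), and log2(TPM + 1) was fitted with limma 3.58.1 in R 4.3.3 by group alone with the trend and robust options. P-values are two-sided and Benjamini-Hochberg adjusted across the kept genes, with 0.05 as threshold. The fit was checked on simulated data, where it missed part of the 2-fold changes and more of the 1.5-fold ones. A gene short of the threshold may therefore still have changed. The members and lists were chosen with earlier results of these data known. All members are named, and of each other list up to 3 genes past the threshold with the smallest adjusted p. A short list of other mismatch repair genes and 1 gene that this rule names are not reported here. The alternatives were blocking on replicate number, dropping single libraries, no filter, a minimum of 5 TPM, median-ratio scaling, quantile normalization, limma without trend and robust options, pseudocounts of 0.1 and 5, and loess correction (span 0.3) for transcript length and GC content from GENCODE (12105 genes, 96.3%). Promoters came from RefSeq on GRCh38.p14, another build than that of the files, and figures from matplotlib 3.10.9.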

Additional observations from a re-analysis of the deposited data

How the results depend on the processing

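Over 15 alternatives the members that fell numbered 15 to 19. Of the 19, 14 fell under every alternative that tested them, and of the 2 that rose FANCF did so. The RAD50 call was lost with no filter and with the replicate block, leaving 1 member that rose and 0 in homologous recombination. Leaving out 1 library gave 1 to 2 members that rose, 6 to 10 that fell and 0 to 1 that rose in homologous recombination, and 1063 (without NEN replicate 1) to 1554 genes that rose overall. With the replicate block 18 members fell, the calls of BLM (adjusted p = 0.0681) and RAD50 (adjusted p = 0.0791) were lost, and 1649 genes fell and 1328 rose in all. The block also took the falls in base excision repair from 5 to 2 and those in nucleotide excision repair from 4 to 2. Deviations of same-numbered libraries correlated at 0.0117, -0.00755 and -0.0278, and not each library correlated best with its own number, so the numbers are not taken as pairs. Median-ratio scaling and quantile normalization kept 19 falls and 2 rises. The members' median of -0.41 became -0.29 when 5 was the pseudocount and -0.30 once length and GC content were corrected for. Under that correction the median of mismatch repair and UNG became 0.09 and that of translesion synthesis went from -0.12 to 0.0724. Depth is unknown, so low genes such as BRCA2, MSH3 and FANCB carry an error that cannot be split into counting and culture.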
